A study of Mus musculus with 18 samples.

Results

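In bone marrow-derived macrophages (BMDM) of mdxTLR4-/- mice, 3006 H3K27me3 regions carried a peak that touched no peak of WT or mdx BMDM. They were chosen by a rule on peak presence: peaks from the 3 lists that shared at least 1 bp on chromosomes 1 to 19 were joined, and a joined region was kept when only the mdxTLR4-/- list had a peak in it. They made up 8.33% of the 36072 merged regions. Each region was exactly 1 peak. Presence in 1 list is what selected them, so their number and their reads are described without a test. A place without a peak may still have held reads, since the lists give reads within peaks alone.

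All cells were BMDM that had not been stimulated, grown from bone marrow for 7 days in medium with L929 supernatant, and chromatin was cut with micrococcal nuclease before immunoprecipitation. WT mice were labelled C57BL6, mdx mice (a point mutation in the dystrophin gene) Dmdmdx-4Cv, and mdxTLR4-/- mice, which lack the lipopolysaccharide receptor TLR4 as well as dystrophin, Bl6/Bl10. Each genotype had 2 H3K27me3 libraries, labelled 12 and 13 weeks for WT, 14 and 15 for mdx, and 16 and 17 for mdxTLR4-/-. H3K27ac had 2 libraries for WT (19 and 20 weeks), 2 for mdx (21 and 22) and 1 for mdxTLR4-/- (23). The input libraries were labelled 6 to 11 weeks for H3K27me3 and 18 for H3K27ac, so the labelled ages rose by 1 week from library to library, and it is uncertain that they are true ages. The strain label is also uncertain, since the study's methods put the parent strains on C57BL/6J. As labelled, strain and age followed genotype and cannot be told apart from it. The replicates were merged before peaks were called, so each genotype gave 1 list per mark and no comparison between genotypes could be tested. Intervals below are 95% intervals over regions, genes or reads (Wilson for shares, order statistics for medians, exact Poisson for the density of a single region) and do not hold the spread between mice.

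H3K27me3 is the trimethyl mark that Polycomb repressive complex 2 places on lysine 27 of histone H3. It is known for broad domains over silent developmental genes and for weaker, wider cover of inactive chromatin. H3K27ac, acetylation of the same residue, marks active promoters and enhancers, and both marks cannot sit on the same histone tail. SICER, the peak caller behind these lists, joins enriched windows of 200 bp into islands and was made for such broad marks.

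Sequences of the regions with the most reads and the highest density are shown first. They are not typical of the set: 2576 of the 3006 regions were neither mostly multi-copy nor rich in tandem repeats by the limits given with those results. Many of the regions with the most reads were stretches present in several copies in the genome or held a tandem repeat of 6 bases. The central bases of the 3 with the most reads, on the plus strand of mm10 (GRCm38) and with CpG in capitals, were:
chr4:146262901-146263100: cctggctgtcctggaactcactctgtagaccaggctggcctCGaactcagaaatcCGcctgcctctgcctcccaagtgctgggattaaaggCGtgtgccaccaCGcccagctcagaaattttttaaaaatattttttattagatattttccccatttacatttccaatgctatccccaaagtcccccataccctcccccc
chr4:146603401-146603600: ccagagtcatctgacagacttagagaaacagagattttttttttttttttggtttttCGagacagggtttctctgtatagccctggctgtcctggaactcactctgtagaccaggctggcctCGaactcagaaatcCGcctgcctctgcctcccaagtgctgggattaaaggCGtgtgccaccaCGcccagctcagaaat
chr5:115809801-115810000: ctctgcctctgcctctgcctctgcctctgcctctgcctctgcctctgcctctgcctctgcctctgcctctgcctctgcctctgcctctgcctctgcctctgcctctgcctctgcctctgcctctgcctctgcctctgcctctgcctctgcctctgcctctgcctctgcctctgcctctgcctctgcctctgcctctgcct

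The first pair came from the zinc finger gene cluster of chromosome 4 and shared long stretches of letters at shifted positions. Part of these letters also stands before the tract of the chromosome 13 sequence below, so that part is not particular to the cluster. The chromosome 5 sequence was a run of a hexanucleotide with no CpG. That repeat was also what most of the densest regions had in common. Parts of the 3 densest regions with a tract of at least 100 bases follow, with the tract in capitals:
chr13:57910215-57910374: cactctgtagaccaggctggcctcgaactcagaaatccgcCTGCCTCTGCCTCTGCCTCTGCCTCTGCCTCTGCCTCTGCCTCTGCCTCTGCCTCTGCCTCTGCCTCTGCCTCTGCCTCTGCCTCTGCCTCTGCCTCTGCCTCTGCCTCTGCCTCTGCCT
chr3:9802801-9802960: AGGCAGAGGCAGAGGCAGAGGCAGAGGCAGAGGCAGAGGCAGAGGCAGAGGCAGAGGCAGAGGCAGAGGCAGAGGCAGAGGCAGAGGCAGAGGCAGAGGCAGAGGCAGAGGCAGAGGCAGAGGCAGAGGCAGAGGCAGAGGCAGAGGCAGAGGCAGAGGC
chr9:75082139-75082298: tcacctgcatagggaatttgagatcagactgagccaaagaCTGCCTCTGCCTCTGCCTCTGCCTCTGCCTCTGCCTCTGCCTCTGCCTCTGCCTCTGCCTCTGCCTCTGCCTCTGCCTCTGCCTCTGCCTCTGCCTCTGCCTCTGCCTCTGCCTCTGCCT

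The repeat is written AGAGGC here, as it reads in the chromosome 3 sequence, while the other tracts show its complement. A tract was counted in any rotation and on both strands. The unit was picked after the values of these regions were seen.

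The regions were short and thinly covered. Their median length was 2000 bp (95% interval 2000 to 2000, quartiles 1400 and 2800, range 200 to 12000), and 44.2% were under 2 kb. They held a median of 38.0 reads (16.0 to 425) and 19.6 reads per kb (95% interval 19.4 to 20.0, quartiles 16.9 and 24.1). The 17005 regions shared by all 3 genotypes were longer, with a median of 9200 bp, and their median density in the mdxTLR4-/- list was 24.7 reads per kb (24.5 to 24.8). In all, the 3006 regions covered 6.47 Mb, or 0.263% of chromosomes 1 to 19, and held 1.77% of the reads in mdxTLR4-/- peaks.

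Regions found in a single genotype were of this kind in each list, with differences of degree. The 7698 regions in mdx alone had a median length of 2200 bp and 23.9 reads per kb in their own list. The 1641 regions in WT alone were longer, with a median of 3800 bp, at 19.1 reads per kb. The lists themselves differed in the same direction: peaks under 2 kb were 3.43% of the WT list, 19.5% of the mdx list and 19.6% of the mdxTLR4-/- list.

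Whether a region of this density could have been called in the other lists was read from peaks of equal length. The mdxTLR4-/- peaks held 7342998 reads in all, WT peaks 8315029 and mdx peaks 10173431. Of the 3006 regions, 35.2% were at least as dense as the least dense WT peak of the same length, and 84.3% as the least dense mdx peak. After scaling to the reads in the peaks of each list, these shares were 61.0% and 99.9%. Unscaled, most of the regions thus lay at densities at which the WT list held no peak of that length, but scaled, most did not. The scaled share for mdx was close to fixed in advance. At most lengths the scaling put even the least dense mdxTLR4-/- peak above the least dense mdx peak. It therefore does not tell whether the regions could have been called in mdx. The WT list held only 6 peaks of up to 400 bp and 104 of over 400 to 1000 bp, beside 97 and 339 of the regions. Its least density at those lengths thus rests on few peaks. For mdx, the least dense peak is 1 extreme of many. At over 2000 to 4000 bp, the regions had a median of 17.1 reads per kb, and the 1st percentile of mdx peaks was also 17.1. Over 4000 bp these values were 16.8 and 19.2, so the longer regions were thin beside nearly all mdx peaks. In the shorter bins the median was above that percentile, as with 21.1 and 20.0 at over 1000 to 2000 bp.

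**Figure D1:**
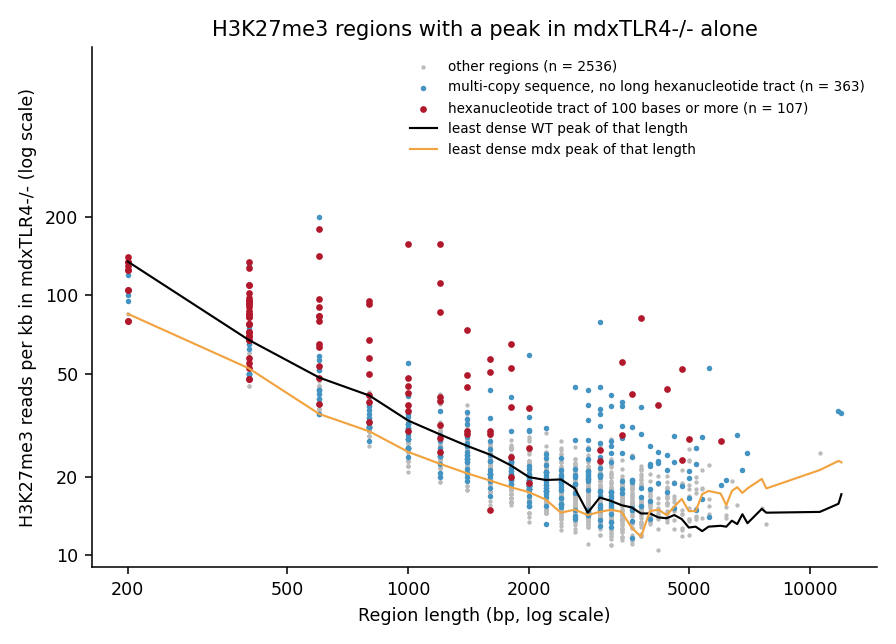
Length (bp, x axis) against H3K27me3 reads per kb in mdxTLR4-/- BMDM (y axis), both on log scales, for the 3006 regions; lines give the least dense WT and mdx peak of each length, unscaled. Most regions sit near or under the WT line, while the 107 regions with a hexanucleotide tract reach 180 reads per kb.

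The rule left a sharp edge. The regions nearest to another genotype's peak abutted it with no base between, which was so for 59 of them, and 285 (9.48%) lay within 600 bp of a WT or mdx peak. The first of these on the genome was chr1:183884801-183888400, with 48 reads over 3600 bp (13.3 reads per kb, 9.83 to 17.7), 124901 bp from Dusp10. Next came chr1:185185201-185187800, with 46 reads over 2600 bp, 16316 bp from Rab3gap2, and chr2:4223401-4225600, with 45 reads over 2200 bp in an intron of Frmd4a. These regions were almost wholly of single copy, and their central bases follow, with CpG in capitals:
chr1:183886501-183886700: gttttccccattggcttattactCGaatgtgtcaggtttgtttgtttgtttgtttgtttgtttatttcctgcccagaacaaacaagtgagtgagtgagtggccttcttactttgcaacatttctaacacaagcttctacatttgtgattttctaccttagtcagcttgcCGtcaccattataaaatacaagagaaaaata
chr1:185186401-185186600: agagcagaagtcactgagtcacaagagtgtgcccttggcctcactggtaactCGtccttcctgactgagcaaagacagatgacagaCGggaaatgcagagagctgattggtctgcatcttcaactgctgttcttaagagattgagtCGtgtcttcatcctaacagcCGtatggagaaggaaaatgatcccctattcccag
chr2:4224401-4224600: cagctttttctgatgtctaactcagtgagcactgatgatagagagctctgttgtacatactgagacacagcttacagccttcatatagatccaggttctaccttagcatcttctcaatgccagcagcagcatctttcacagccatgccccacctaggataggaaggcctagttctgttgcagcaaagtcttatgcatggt

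On the other side of the edge, 151 mdxTLR4-/- peaks overlapped a WT or mdx peak by only 200 bp, which was 1 window of the peak caller. The first of them were chr1:9652801-9656600 (58 reads, 15.3 per kb), near Mybl1, then chr1:57936801-57939200 (40 reads, 16.7 per kb), in Spats2l, and chr1:72338401-72342200 (58 reads, 15.3 per kb), in Xrcc5. These peaks just outside the rule had lengths and densities in the range of those just inside it.

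The regions lay close to shared domains. Of the 3006 regions, 914 (30.4%, 28.8 to 32.1) were within 5 kb of a region shared by all 3 genotypes, and 2222 (73.9%) were within 50 kb. The share within 5 kb was 20.0% with a minimum on peak density and 55.2% with any WT or mdx peak as the neighbour. Of the bases outside shared regions, 4.98% lay within 5 kb of one and 25.1% within 50 kb. The median distance was 13600 bp (12600 to 15000). Shared domains flanked 35.8% of the regions within 50 kb on both sides.

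This nearness was not particular to mdxTLR4-/-. Of the regions in mdx alone, 33.3% (32.2 to 34.3) were within 5 kb of a shared region, and of those in WT alone 29.9% (27.7 to 32.1). Somewhat fewer regions of mdxTLR4-/- alone were within 100 kb, 83.4% (82.0 to 84.7), against 86.3% (85.5 to 87.0) in mdx alone and 88.8% (87.2 to 90.3) in WT alone. The farthest of the 3006 were chr4:78803601-78804000, a region of 400 bp that was 87.5% tandem repeat, with 54 reads at 2351600 bp, the start of Gm3488 on chromosome 14 (128 reads, 2286600 bp) and chr4:95403201-95405400 (38 reads, 2212400 bp), 152106 bp from Fggy.

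**Figure D2:**
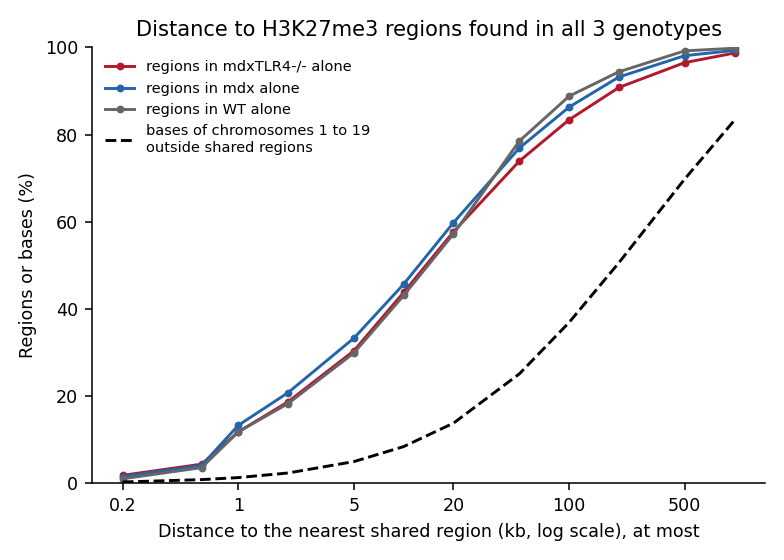
Share of regions (y axis, %) that lie within a given distance of a region shared by all 3 genotypes (x axis, kb, log scale), for regions in mdxTLR4-/-, mdx or WT alone, with the share of bases outside shared regions as a dashed line. The 3 region curves run together, at 30.4%, 33.3% and 29.9% at 5 kb, far above the 4.98% of bases.

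Gene starts were rarely covered. A protein-coding gene start lay under 57 of the regions (1.90%, 1.47 to 2.45), against 2.16% (1.85 to 2.51) in mdx alone, 3.11% (2.37 to 4.06) in WT alone, 24.9% in shared regions and 13.3% over all merged regions. The share was 3.39% when all lists were limited to peaks of at least 2 kb, and 5.76% with the starts of all annotated genes. Per length, the regions held 9.12 gene starts per Mb, the shared regions 19.7 and chromosomes 1 to 19 as a whole 8.45. A protein-coding gene body was touched by 38.7% (36.9 to 40.4) of the regions, beside 40.3% of all bases that lie in such genes. By their midpoint, 34.0% were in introns, 1.30% in coding exons, 1.36% in UTRs and 62.6% outside protein-coding genes. On these measures the regions were spread over genes much as bases are.

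Predicted genes of multi-copy sequence made up most of the covered starts with the most reads. The first was Gp9, an exception, which encodes platelet glycoprotein IX: chr6:87775001-87779400 held 192 reads (43.6 reads per kb, 37.7 to 50.3), a tandem repeat made up 12.0% of it, and an mdx peak stood elsewhere in the gene window. Gm3402 followed, a predicted gene on chromosome 5 with 173 reads over 7000 bp, where 95.6% of the 31-base runs in the central 2 kb were found more than once in the genome. The central bases of the first 3, with CpG in capitals, were:
chr6:87777101-87777300: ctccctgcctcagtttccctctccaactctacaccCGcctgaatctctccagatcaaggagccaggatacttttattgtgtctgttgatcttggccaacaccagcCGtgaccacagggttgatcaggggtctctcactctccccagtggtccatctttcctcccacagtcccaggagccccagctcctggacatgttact
chr5:146514001-146514200: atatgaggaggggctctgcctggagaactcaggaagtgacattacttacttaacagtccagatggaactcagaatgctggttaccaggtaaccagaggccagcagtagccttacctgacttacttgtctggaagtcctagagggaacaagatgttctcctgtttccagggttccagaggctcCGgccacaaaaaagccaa
chr14:3413501-3413700: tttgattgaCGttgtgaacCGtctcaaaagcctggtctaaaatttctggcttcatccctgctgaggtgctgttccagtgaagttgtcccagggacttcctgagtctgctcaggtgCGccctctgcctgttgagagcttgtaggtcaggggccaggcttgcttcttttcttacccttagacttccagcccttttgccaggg

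The third, at Gm10409 with 135 reads, belonged to a cluster of predicted genes between 3 and 8 Mb of chromosome 14. Starts of 9 more genes there were covered: Gm3667 (133 reads), Gm3512 (133), Gm3020 (132), Gm3488 (128), Gm3739 (110), Gm3373 (107), Gm8281 (105), 2610042L04Rik (94) and Gm3411 (78). In that stretch of 5 Mb the mdxTLR4-/- list had 32 peaks with 3620 reads, the mdx list 18 with 2117 and the WT list 6 with 852. It held 20 of the 3006 regions, of which 17 were mostly multi-copy, beside 5 regions in mdx alone and 1 in WT alone. A read of such sequence was placed at a single one of its matches, so the reads of a copy may have come from another.

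Beside Gp9, 3 of the 15 covered starts with the most reads were of mostly single-copy sequence. Hdac10, a class II histone deacetylase, had 85 reads over 4200 bp (20.2 reads per kb), in a region that abutted a shared one. Oit3 had 78 reads over 4400 bp, and Enpp6, a choline phosphodiesterase of oligodendrocytes, 68 over 4000 bp. Of the 59 starts covered, 26 had a WT or mdx peak elsewhere in the gene window, from 5 kb upstream to 1 kb past the gene. Among the others named after their values were seen, Phc2, a subunit of Polycomb repressive complex 1, had 38 reads, Thra, the thyroid hormone receptor alpha, 45, and Gabra5, a GABA receptor subunit, 38. A WT and an mdx peak stood elsewhere in the window of Phc2, and none in those of Thra or Gabra5.

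Repeated sequence was more frequent in these regions than in the other patterns. A region was called mostly multi-copy when at least 50% of the runs of 31 bases in its central 2 kb were found more than once in the genome. This held for 408 regions (13.6%, 12.4 to 14.8), against 3.23% (2.86 to 3.65) in mdx alone, 5.18% (4.21 to 6.36) in WT alone, 2.50% (2.28 to 2.74) in shared regions and 3.94% of all merged regions. Among regions of over 1 kb and up to 4 kb it held for 10.3% (9.14 to 11.6), 3.05% (2.66 to 3.50), 4.35% (3.25 to 5.81) and 2.42% (1.82 to 3.23), so it was also highest in mdxTLR4-/- alone at this length. Among regions of up to 1 kb it was 29.4% (25.3 to 33.8) in mdxTLR4-/- alone and 4.07% (2.81 to 5.85) in mdx alone, beside 3 of 13 in WT alone and 2 of 5 shared regions, too few to order. Tandem repeats of units of 1 to 6 bases made up at least 25% of 73 regions (2.43%, 1.94 to 3.04), against 3 in mdx alone, 1 in WT alone, 1 in shared regions and 0.219% of all merged regions.

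Of those 73 regions, 69 held a tract of the AGAGGC hexanucleotide. Tracts of at least 100 bases lay in 107 of the 3006 regions (3.56%, 2.95 to 4.28), in 11 of the regions in mdx alone (0.143%), in 4 of those in WT alone (0.244%), in 1.26% of the longer shared regions and in 1.01% of all merged regions. Regions with a peak in both WT and mdxTLR4-/- held one at 2.27% (15 of 661, 1.38 to 3.71), an interval that overlaps that of mdxTLR4-/- alone. Among regions of up to 1 kb the shares were 15.8% (12.7 to 19.5) in mdxTLR4-/- alone and 0.452% (0.154 to 1.32) in mdx alone. WT alone had only 13 regions that short and none with a tract, which allows a share of up to 22.8%. The 107 regions held 4.90% of the reads of the 3006. They had a median of 65.0 reads per kb (52.5 to 77.5) over 600 bp, and the other 2899 had 19.4 (19.4 to 19.6) over 2000 bp. Short peaks had to be denser to be called: the least dense mdxTLR4-/- peak held 31.7 reads per kb at 600 bp and 13.5 at 2000 bp. The contrast thus mixes tract and length, and their parts were not tested. By midpoint, 27 of the 107 were in introns.

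**Figure D3:**
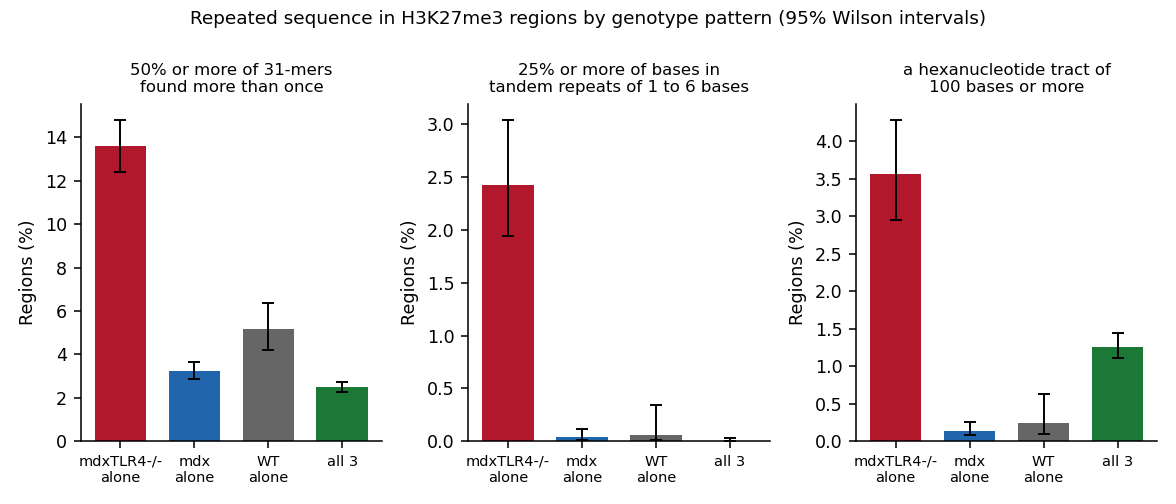
Share of regions (y axis, %) that were mostly multi-copy (left), that were made up of tandem repeats by at least 25% (middle) or that held a hexanucleotide tract of 100 bases or more (right), by genotype pattern, with 95% Wilson intervals. Of the 4 patterns drawn, regions in mdxTLR4-/- alone stand highest in each panel, at 13.6%, 2.43% and 3.56%.

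Of the 22 regions over 100 reads per kb, all of 200 to 1200 bp, 20 held such a tract of at least 30 bases. The densest of these was chr13:57910201-57910800, 1868 bp from Spock1, with 108 reads (180 reads per kb, 148 to 217). Next came an intron of Pag1, an adaptor that anchors the kinase Csk, where chr3:9802801-9803800 held 158 reads over 1000 bp. An intron of Myo5a, the myosin that carries melanosomes, had 189 reads over 1200 bp (158 reads per kb, 136 to 182). The 2 dense regions without a tract were chr8:15519601-15520200, with 120 reads (200 reads per kb, 166 to 239), and chr9:56223401-56224000 in an intron of Peak1, with 85 reads. Both were mostly multi-copy, at 51.1% and 64.0% of their 31-base runs.

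The tract was then counted over the whole genome, by the same peak presence that the rule used. Of the 911 AGAGGC tracts of at least 100 bases on chromosomes 1 to 19, mdxTLR4-/- peaks touched 359 (39.4%, 36.3 to 42.6), WT peaks 227 (24.9%, 22.2 to 27.8) and mdx peaks 227 (24.9%, 22.2 to 27.8). Of those 359, 118 lay under the regions in mdxTLR4-/- alone, which the rule had chosen, while regions in WT alone held 4 and regions in mdx alone 11. The other peaks of each list touched 241 tracts for mdxTLR4-/-, 223 for WT and 216 for mdx. Most of the difference between the lists was thus in the chosen regions. Of the 157 tracts of at least 200 bases, mdxTLR4-/- peaks touched 77, of which 35 under the chosen regions, and WT and mdx peaks 35 each. Of 5277 tracts of all other units of at least 100 bases, mdxTLR4-/- peaks touched 603 (11.4%, 10.6 to 12.3), WT peaks 670 and mdx peaks 626, and 26 lay under the chosen regions. The AGCAGG unit, also named after its values were seen, had 171 tracts of at least 30 bases, touched at 55.6% (48.1 to 62.8) by mdxTLR4-/- peaks, 39.8% (32.7 to 47.2) by WT peaks and 49.1% (41.7 to 56.6) by mdx peaks. Of the 95 touched by mdxTLR4-/- peaks, 14 lay under the chosen regions, and the other peaks touched 81, against 68 for WT and 78 for mdx outside their own regions.

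Among the short peaks of each list, the count was largely that of the chosen regions. Of 1785 mdxTLR4-/- peaks of up to 1 kb, 75 held a tract of at least 100 bases (4.20%, 3.37 to 5.23), against 4 of 1740 mdx peaks (0.230%, 0.0894 to 0.590) and none of 110 WT peaks. Of those mdxTLR4-/- peaks, 69 were themselves among the 3006 regions, so the count adds little beyond the rule. H3K27ac peaks touched few of the 911 tracts, with 15 in WT, 7 in mdx and 5 in mdxTLR4-/-. Shared regions were not among those the rule kept. In the 215 with a tract, density scaled to the reads in peaks was 1.12 times (1.11 to 1.13) that of WT in mdxTLR4-/-, and in the 16790 without it 1.09 times (1.08 to 1.09). Unscaled, these ratios were 0.988 (0.977 to 0.998) and 0.959 (0.957 to 0.961), so the direction against WT turned with the scaling. Against mdx the ratios were 1.13 scaled and 0.816 unscaled with a tract, and 1.09 and 0.789 without. In shared regions of up to 6 kb, the scaled ratio to WT was 1.18 (1.06 to 1.34) in the 18 with a tract and 1.07 (1.07 to 1.08) in the 4808 without, and the unscaled ratio 1.04 (0.933 to 1.19) and 0.948 (0.941 to 0.957). To mdx, the ratios there were 1.35 scaled and 0.975 unscaled with a tract, and 1.09 and 0.786 without. Input reads at the tracts were not analysed here, the part of single libraries was not tested, and labelled strain and age cannot be told apart from genotype.

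**Figure D4:**
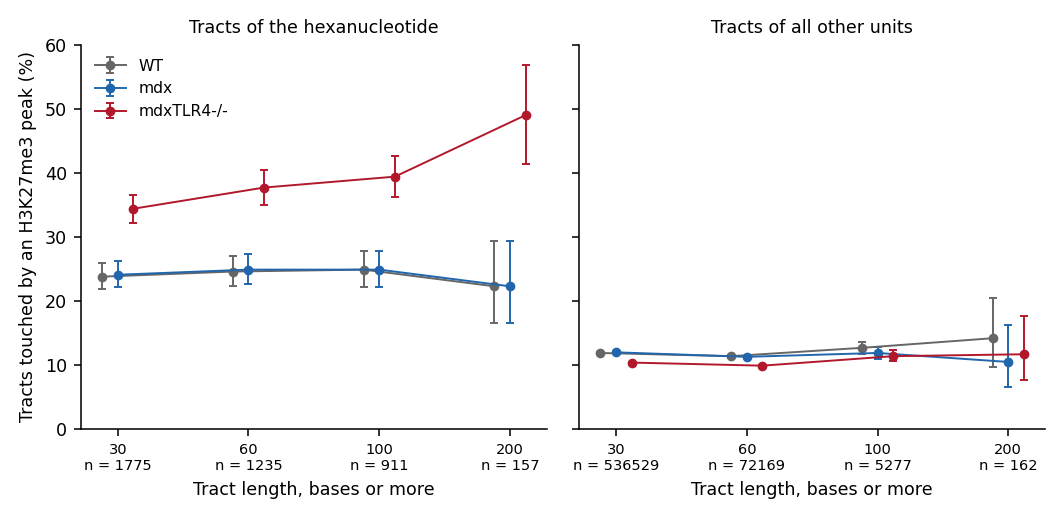
Share of tandem repeat tracts on chromosomes 1 to 19 (y axis, %) touched by an H3K27me3 peak of each genotype, for tracts of at least 30, 60, 100 or 200 bases (x axis, each set holding the next), with 95% Wilson intervals. For the hexanucleotide (left) mdxTLR4-/- reaches 49.0% at 200 bases and WT and mdx 22.3%, with 35 of the 77 tracts touched there lying under the regions chosen by the rule; for all other units (right) the 3 lists lie close together.

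The regions with the most reads were led by other repeats. The longest were a pair in the zinc finger cluster of chromosome 4, chr4:146257001-146269000 with 425 reads (35.4 reads per kb) and chr4:146597601-146609400 with 423 (35.8 reads per kb), at 92.4% and 94.6% multi-copy. The second lay 1560 bp from Zfp993. Next were chr5:115808001-115811800, 33477 bp from Cit (310 reads, 81.6 per kb), and chr1:16070401-16076000 in an intron of 4930444P10Rik (295 reads, 98.4% multi-copy). Of the 10, 2 were below 10% multi-copy, chr4:119675601-119686200, 16646 bp from Guca2b (263 reads over 10600 bp) and 800 bp from a shared region, and the Gp9 region. Also among the 10, chr8:19970801-19977400, held 192 reads at 76.1% multi-copy, 45087 bp from Gm31371.

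Density among regions of at least 2 kb gave a similar set. Beside the Cit, 4930444P10Rik and Gp9 regions it held chr6:125415601-125418600, 34807 bp from Plekhg6 (237 reads, 79.0 per kb), chr2:51946201-51948200 next to Nmi (118 reads, 59.0 per kb) and chr8:95516001-95519400, 14684 bp from Ccdc113 (188 reads, 55.3 per kb). It also held chr7:35159201-35164000, 22384 bp from Slc7a10, with 250 reads and 52.1 per kb. The remaining 3 were in the chromosome 14 cluster, nearest to Gm10128 (44.6 per kb), over the start of Gm3512 (44.3) and nearest to Gm3727 (43.2).

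A second cluster of copies lay on chromosome 4. The single megabase with the most regions, chr4:42000001-43000000, held 22, all of them mostly multi-copy, where the median megabase held 1.00. The megabase before it held 10. Together they carry the duplicated genes of the chemokines CCL27 and CCL21, which guide lymphocytes to skin and lymph node, and the regions touched the windows of Ccl27a and Ccl21a. Over the 2 Mb, the mdxTLR4-/- list had 75 peaks with 15386 reads, the mdx list 37 with 15690 and the WT list 28 with 12883. These read numbers are not scaled to the lists, which differ in their total.

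Other crowded megabases were mostly of single copy. On chromosome 12, the megabase from 25000001 held 11 regions, none mostly multi-copy, beside 25 in mdx alone and 10 shared, and it had no protein-coding gene. On chromosome 13, that from 34000001 held 10, of which 2 were mostly multi-copy, beside 21 in mdx alone and 23 shared. By chromosome, regions in mdxTLR4-/- alone made up between 6.53% of the mdxTLR4-/- peaks (chromosome 2) and 11.2% (chromosome 10). Over all of them it was 8.28%.

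Tlr4, the gene deleted in these mice, lies at chr4:66827584-66930284. Its window carried no H3K27me3 peak in any genotype. H3K27ac peaks stood there in all 3, with 2 peaks and 52 reads in WT, 1 and 29 in mdx, and 4 and 43 in mdxTLR4-/-, so these lists gave no check of the deletion. Regions in mdxTLR4-/- alone were sparse around it, with 10 within 10 Mb on each side, or 0.497 per Mb, against 1.12 per Mb on chromosome 4. Regions in mdx alone were at 1.84 per Mb there against 2.40 on chromosome 4, those in WT alone at 0.398 against 0.543, and shared regions at 3.68 against 6.59. Within 5 Mb on each side there were 3 in mdxTLR4-/- alone (0.297 per Mb), 20 in mdx alone (1.98), 5 in WT alone (0.495) and 51 shared (5.05). These are few regions, and no test was made.

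The labelled cell type was read from H3K27ac at gene starts. Of 20 macrophage genes, 17 had an H3K27ac peak within 1 kb of the start in WT, 18 in mdx and 17 in mdxTLR4-/-, where Mrc1, Cebpb and Aif1 lacked one. None of the 10 T cell genes, 10 neutrophil genes or 8 fibroblast genes had one in any genotype. For B cell and erythroid genes it was 1 of 8 in each genotype, and for skeletal muscle genes 2 of 30. H3K27me3 peaks stood at the start of 1 macrophage gene in each genotype, against 7 of 10 T cell genes and 18 of 30 skeletal muscle genes in mdxTLR4-/-. The regions in mdxTLR4-/- alone covered none of these start windows but 1, at the neutrophil gene Prtn3.

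Genes were then counted by their window. Of 20780 protein-coding genes, 1055 (5.08%) had at least 1 region in mdxTLR4-/- alone in the window, and 719 of these (68.2%) had a shared region there as well. Over all genes, 38.1% had a shared region in the window. The shares below are to be read against 5.08%, and a longer window has more chance of a region. Over all gene windows joined, there were 1.22 regions per Mb, the same density as on chromosomes 1 to 19.

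The TLR4, cytokine and macrophage lists were short and gave shares that could not be told from that of all genes. None of the 26 genes of the TLR4 receptor and its signalling had a region, an interval that reaches 12.9%, and neither did Nos2, Tnf, Il6, Il12a, Tgfb1, Mrc1 or Chil3 of the study's M1 and M2 marker panel. Of these, Nos2, the inducible nitric oxide synthase, had H3K27me3 peaks that held 1717 reads for WT, 1829 for mdx and 1586 for mdxTLR4-/-. Il12a, a subunit of interleukin 12, had 191, 301 and 145 reads. Tnf, which encodes the cytokine TNF, had 60 and 85 reads for WT and mdx and no peak for mdxTLR4-/-, and Il6, Tgfb1, Mrc1 and Chil3 had no H3K27me3 peak in any genotype. The region nearest to any of these genes was 6913 bp from the window of Il6. Their read numbers were not scaled to the lists, whose peaks held 8315029 reads in all for WT, 10173431 for mdx and 7342998 for mdxTLR4-/-. The order between genotypes is thus not read, nor set against the lower peak intensity in mdx that the study showed at Nos2 and Il12a.

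Of 36 cytokine and chemokine genes, a list that leaves out Ccl27a and Ccl21a, 1 had a region: Il1a, which encodes interleukin 1 alpha, with 61 reads over 3200 bp (19.1 reads per kb), whose near end lay at -1629 bp from the gene start. Of 20 macrophage genes, 1 had one: Ctsb, the lysosomal protease cathepsin B, where a stretch of 400 bp with 38 reads, 48.8% of it tandem repeat, lay at -3062 bp. None of a list of 20 genes of Polycomb subunits and H3K27 enzymes, to which Phc2 does not belong, had a region. The 3 lists the study compiled by inflammatory and fibrotic function were touched at 4.12% (28 of 679 pro-inflammatory genes, 2.87 to 5.90), 7.61% (58 of 762 anti-inflammatory genes, 5.93 to 9.71) and 8.47% (5 of 59 pro-fibrotic genes, 3.67 to 18.4). Their windows were longer than the median of 23.6 kb, at 30.9, 35.9 and 45.4 kb. Regions in mdx alone touched 9.87%, 12.3% and 23.7% of the genes of these lists, against 10.00% of all genes. Regions in WT alone touched 4.12%, 4.33% and 8.47%, against 3.43%. The higher shares of the anti-inflammatory and pro-fibrotic lists were thus also seen in those patterns.

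Per Mb of window those lists held 0.957, 1.39 and 1.88 regions, against 1.22 over all genes. In the pro-inflammatory list the most reads were at Pag1 (158), Nmi (118) and Carmil1 (70), of which the first pair were the dense repeats above. In the anti-inflammatory list they were at Ect2 (72, in a region 58.2% multi-copy), a guanine nucleotide exchange factor of cytokinesis, Itsn1 (70) and Gpr155 (65). The pro-fibrotic genes touched were Gdf3 (134 reads, 65.8% tandem repeat), Fgfr2 (58), Col6a1 (38), Egfr (37) and Egf (28). Fgfr2, a fibroblast growth factor receptor, had 8 regions in an annotated window of 2967 kb, which made up 8 of the 12 regions of the pro-fibrotic list and sets its value per Mb.

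**Figure D5:**
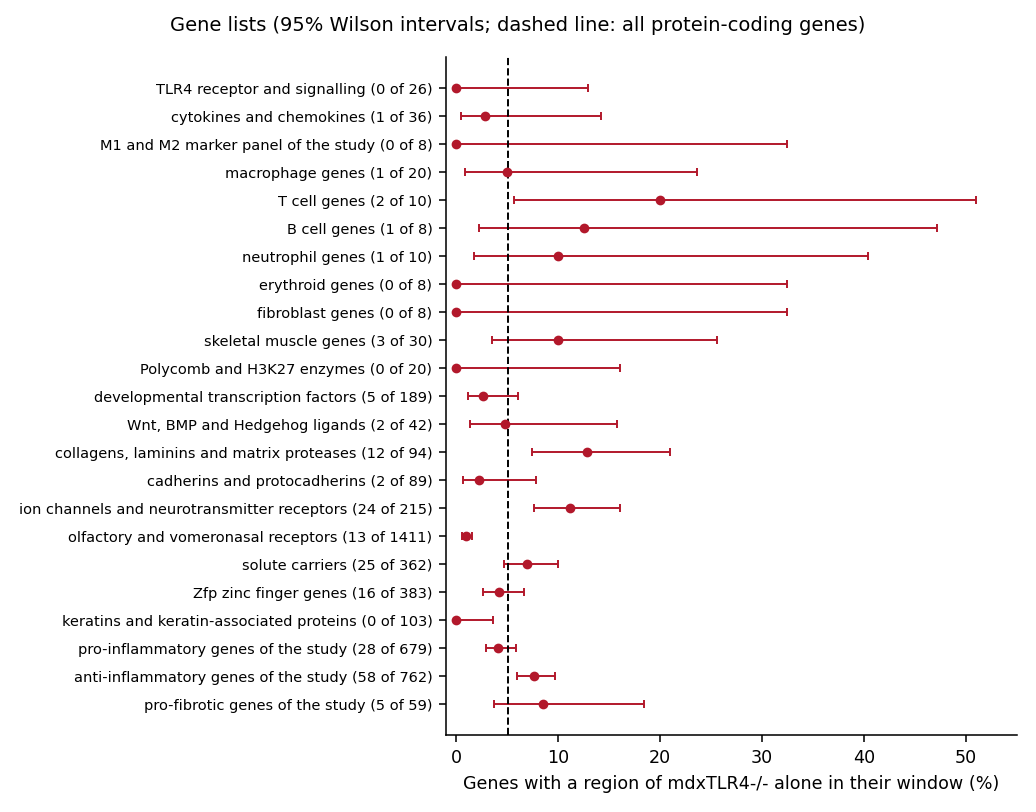
Share of the genes of each list (x axis, %) with a region of mdxTLR4-/- alone in their window, with 95% Wilson intervals, beside 5.08% of all protein-coding genes (dashed line). TLR4 signalling, cytokine and macrophage genes sit at or under the line with wide intervals that cross it, while matrix, channel and the study's anti-inflammatory genes, with long windows, sit to its right.

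A few lineage genes of other cells were touched, mostly in introns. Of 10 T cell genes, all had a shared region in the window and 2 had a region in mdxTLR4-/- alone: Lck, the T cell receptor kinase (74 reads over 4600 bp), and Bcl11b, a T cell transcription factor (29 reads), both in introns. Of 8 B cell genes 1 did, Pax5 (32 reads). Of 30 skeletal muscle genes, 3 did, in introns of Ryr1, the calcium release channel (34 reads), Neb, which encodes nebulin (28 reads), and Actn2, which encodes alpha-actinin 2 (25 reads). Of 10 neutrophil genes 1 was touched: Prtn3, the proteinase 3 of their granules, had 67 reads over 3400 bp whose near end lay at -76 bp from the start. No erythroid or fibroblast gene of 8 each had one.

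Developmental genes, the classic Polycomb targets, were touched at a share whose interval held that of all genes, in windows with a median of 12.3 kb and at 0.933 regions per Mb. Of 189 developmental transcription factor genes, 173 had a shared region in the window but 5 (2.65%, 1.14 to 6.04) had a region in mdxTLR4-/- alone: Tbx19 (61 reads), Foxp4 (54), Pax8 (47), Pax5 (32) and Sox5 (31). All 5 also had a shared region. Of 42 genes of Wnt, BMP and Hedgehog ligands, 2 were touched, Gdf3 and Bmp6. Cadherins and protocadherins were touched at 2 of 89, Cdh13 and Cdh3, at 0.200 regions per Mb, though their median window was 101 kb. Regions in mdx alone touched 23.6% of them (10.00% of all genes), and regions in WT alone 5.62% (3.43% of all genes). The low share was thus not seen in those patterns, and the difference was not tested.

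Genes of matrix and ion channels were touched at higher shares, with long windows (medians of 61.3 and 48.4 kb). Of 94 genes of collagens, laminins and matrix proteases, 12 were touched (12.8%, 7.46 to 21.0), led by Mmp20 (90 reads), Adamts2 (56) and Lama3 (52), and all 12 also had a shared region. Of 215 genes of ion channels and neurotransmitter receptors, 24 were touched (11.2%, 7.62 to 16.1), led by Kcnu1 (65 reads), Grik3 (63) and Cacna1e (59), and 23 of these had a shared region. Per Mb of window these lists held 1.59 and 1.06 regions, against 1.22 over all genes. The same lists stood above all genes for regions in mdx alone (26.6% and 16.3%, against 10.00%) and in WT alone (9.57% and 6.05%, against 3.43%). Solute carriers were at 25 of 362 (6.91%, 4.72 to 10.00, which holds the share of all genes), led by Slc12a8 (88 reads), Slc6a2, the noradrenaline transporter (76), and Slc24a4 (70).

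Receptor and keratin families that lie in gene clusters were touched at low shares. Olfactory and vomeronasal receptors were at 13 of 1411 (0.921%, 0.539 to 1.57), led by Olfr1331 (53 reads), Olfr1381 (47) and Olfr1380 (39), at 0.545 regions per Mb. None of 103 keratin and keratin-associated genes was touched (their median window was 7.58 kb). Zfp zinc finger genes were at 16 of 383 (4.18%, 2.59 to 6.68), led by Zfp993 (423 reads), Zfp827 (76) and Zfp536 (70). Regions in mdx alone touched 3.05% of the olfactory and vomeronasal receptor genes against 10.00% of all genes, so the low share was also seen there.

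Most of the single genes with many regions were long. Rora, the nuclear receptor ROR alpha, had 10 regions in a window of 740 kb with 408 reads in all, Asic2, a proton-gated channel, 9 in 1094 kb, and Fstl4 7 in 430 kb. The regions of these 3 were mostly of single copy, with median multi-copy shares of 3.68%, 4.56% and 1.62%. Phactr1 had 6 regions in 464 kb, and Dock9 5 in 262 kb. A pair in the duplicated stretch of chromosome 4 was shorter, Gm12394 with 6 regions in 80.8 kb and 4930578G10Rik with 5 in 117 kb, the second with a median multi-copy share of 64.4%.

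H3K27ac, which the rule did not use, touched few of the regions. A peak of any genotype touched 46 of the 3006 (1.53%, 95% interval up to 2.04), against 0.805% (0.629 to 1.03) in mdx alone, 1.89% (1.33 to 2.67) in WT alone, 4.26% in the longer shared regions and 2.65% of all merged regions. Per Mb of region, the touched regions numbered 7.11, against 3.45 in mdx alone, 4.86 in WT alone and 2.77 in shared regions, so the order against WT alone and shared regions turned when length was taken into account. A count of regions touched at any base is higher per Mb for short regions. By list, it was 21 regions for WT, 18 for mdx and 14 for mdxTLR4-/-. No region was touched by all 3 lists, 32 were touched by WT or mdx and not by mdxTLR4-/-, and 7 by mdxTLR4-/- alone. The H3K27ac lists of WT, mdx and mdxTLR4-/- (1 library) themselves covered 1.29%, 0.977% and 0.832% of chromosomes 1 to 19. They touched 2.13%, 1.68% and 1.59% of shared regions, and 0.377%, 0.234% and 0.390% of regions in mdx alone. The counts by list are thus not read as a property of the 3006 regions. Of the 46, 23 were mostly multi-copy, and without multi-copy regions the share was 0.885%.

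Few gene starts were among them. The start of 2510009E07Rik had 43 H3K27me3 reads in mdxTLR4-/- and H3K27ac peaks with 10 reads in mdx and 11 in mdxTLR4-/-. Gm3512, in the chromosome 14 cluster, had an H3K27ac peak of 8 reads in WT, and E330021D16Rik one of 9 reads in WT. Named after its values were seen, an intergenic region 13016 bp from H2-K1, which encodes a class I histocompatibility chain, had 43 H3K27me3 reads and H3K27ac peaks of 17 reads in mdx and 8 in mdxTLR4-/-. These H3K27ac peaks held 8 to 17 reads, a range that also holds the peak in the window of Tnf (12 reads in WT and 9 in mdx).

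Base composition was near that of the other patterns. Median G+C was 46.8% (46.6 to 46.9), against 45.5% (45.4 to 45.6) in mdx alone, 46.4% (46.2 to 46.6) in WT alone and 46.7% (46.6 to 46.8) in shared regions. The ratio of observed to expected CpG was 0.180 (0.177 to 0.184), against 0.178, 0.190 and 0.211. CpG islands, known as the places where Polycomb is recruited, have ratios far above these. Starts with high ratios included Gabra5 at 0.779, Ube2e2 at 0.755 and Phc2 at 0.634.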

How the data were processed

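ChIP-seq of H3K27me3 and H3K27ac in BMDM was analysed from 6 deposited peak lists. Per the study's methods and the submitters' processing notes, the authors trimmed reads (cutadapt 1.15), mapped them to mm10 with Bowtie2 2.3.4 at default parameters, which give a read with several equal places 1 of them, merged the replicates, and called peaks against input with SICER 2.0 (window 200 bp, gap 600 bp, FDR 0.01). The lists deposited by the authors hold, for every peak, a read count of the merged ChIP libraries without normalisation. Ends were read as inclusive.

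Peaks were merged and compared with GENCODE vM21 genes in Python 3.11.15 (numpy 2.4.6, pandas 2.3.3, scipy 1.17.1, numba 0.67.0). Peak presence alone defined a pattern. Density was reads per kb of peak. Runs of 31 bases were counted on both strands over chromosomes 1 to 19, X and Y of RefSeq GRCm38.p6, and tandem tracts were perfect runs of at least 30 bases. The steps were tested on simulated peak lists and sequence. The members and gene lists were chosen with earlier results of these data known, and the repeat classes and clusters after their values were seen.

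Named were the 10 regions with the most reads, the 10 of at least 2 kb with the highest density, the 15 over a gene start with the most reads, the 3 genes of each list with the most reads, the regions nearest to and farthest from the other peaks, the marker panel and, beyond this rule, genes and repeats said in the text to have been picked after their values were seen. Reads outside peaks and input reads were not analysed here. An item of the marker panel is not reported here. Alternatives were peak length, density, merging, chromosomes, peak ends, overlap, annotation, neighbours and repeat content.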

Additional observations from a re-analysis of the deposited data

How the results depend on the processing

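No paired analysis was possible because the replicates were merged before peaks were called, and for the same reason no replicate could be left out. The number of regions was within 1.5 times of 3006 under every alternative run, between 2239 with peaks of at least 2 kb and 3825 with peaks at or above 1.5 times the 1st percentile of density. With peaks of at least 2 kb the median length was 2600 bp, the median density 17.7 reads per kb and the share over a gene start 3.39%. With lists cut to equal numbers of peaks by density the median length was 1600 bp, the density 23.1 and the share within 5 kb of a shared region 26.3%. With the density minimum they were 1600 bp, 24.4 and 20.0%, and 0.915% touched H3K27ac. With exclusive peak ends the median length was 1999 bp, and with peaks up to 600 bp apart merged 28.3% were within 5 kb of a shared region. Taking any WT or mdx peak as neighbour gave 55.2%, all annotated genes gave 5.76% over a gene start and 50.6% touching a gene body, and the mdxTLR4-/- H3K27ac list alone gave 0.466%. Chosen after seeing the data, leaving out mostly multi-copy regions gave 2598 regions, 19.4 reads per kb, 32.4% within 5 kb of a shared region and 0.885% touching H3K27ac. The other 48 of 67 values lay within the interval of the main value, or within 1.5 times the count. The causes were not tested. Depth was not varied, and the lowest read count among the 3006 regions was 16.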
